A study of Caenorhabditis elegans with 12 samples.

Results

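Whole adults of Caenorhabditis elegans were compared by the label for prp-19 RNAi while mitochondria were under stress from atp-2 RNAi. The comparison set 3 libraries whose labels combine prp-19 and atp-2 RNAi against 3 libraries of control RNAi (the empty vector L4440) with atp-2 RNAi, chosen by those labels, which is 6 of the 12 libraries of the series. The other 6 libraries carried the prp-19 or the control label without atp-2 RNAi. All 12 came from the strain glp-4(bn2), a temperature-sensitive mutant in which the germline does not form when warm, at day 1 of adulthood, and polyA RNA was sequenced. All 6 libraries compared here therefore share the glp-4(bn2) allele, the feeding of RNAi bacteria and the atp-2 RNAi itself, so none of them shows unstressed or fertile worms. Nothing in the labels says whether replicates were separate cultures, so p-values measure the spread between these samples. The study's stated aim was to examine alternative splicing and mRNA profiles, and the gene counts used here speak to the mRNA profile alone.

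PRP-19 is the ubiquitin ligase at the heart of the complex named after it, which joins the spliceosome as it becomes catalytically active and helps to remodel its small nuclear ribonucleoproteins (snRNPs). Splicing in C. elegans touches nearly every protein-coding gene, because most of them carry introns. The atp-2 gene encodes the beta subunit of the mitochondrial ATP synthase, and its loss induces the mitochondrial unfolded protein response, in which the transcription factor ATFS-1 raises chaperones such as HSP-6 and HSP-60, import machinery and metabolic genes.

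Depth was similar in both groups, at 7046481 to 8700176 counts in the prp-19 + atp-2 labelled libraries and 7432951 to 8802767 in the control + atp-2 libraries. More genes had a read under the prp-19 label, 18606 to 19307 against 17172 to 17447 in the control + atp-2 libraries. Replicates differed by more than sampling noise, with a chi-square per degree of freedom of 2.24 to 4.09 within the prp-19 + atp-2 labelled libraries and 1.44 to 2.37 within the control + atp-2 libraries. The 3 replicates of each group lay close together on the first principal components of all 12 libraries, which held 61.9% and 17.5% of the variance. One library outside this pair of groups stood apart, replicate 3 of the prp-19 label without atp-2 RNAi, at 9.54 on the third component (5.3%) against -27.5 and -24.01 for its replicates 1 and 2. It enters the shared estimate of spread and every value given for worms without atp-2 RNAi.

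The prp-19 gene (chromosome III, 5169933 to 5172045, WBcel235) did not follow its label. Its transcript had 40.8, 29.1 and 18.1 CPM (counts scaled to a common library size, with TMM factors) in the prp-19 + atp-2 labelled libraries, against 27.9, 27.9 and 27.5 CPM in the control + atp-2 libraries. The labelled libraries lay above, near and below the controls, so the groups overlapped, and the log2 fold change of 0.07 (SE 0.37) was not called (adjusted p = 0.887). Without atp-2 RNAi the prp-19 level was higher in all 3 labelled libraries, at 84.1, 37.9 and 40.9 CPM, than in the control libraries, at 27.1, 24.3 and 28.04 CPM, with a log2 fold change of 1.04 (adjusted p = 0.0401). That call was lost in 4 fits that left out 1 library with atp-2 RNAi (adjusted p of 0.0559 to 0.0566) and when low counts were not filtered (0.0741). The cause of these levels was not tested, gene counts do not show the protein, and the groups are therefore named by their labels below. Adjusted p-values are from edgeR's quasi-likelihood test over 12850 genes with Benjamini-Hochberg adjustment, and a gene was called at an adjusted p under 0.05.

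The atp-2 transcript (chromosome III, 5228417 to 5230536), the target shared by both groups, also differed. It had 512, 498 and 501 CPM in the prp-19 + atp-2 labelled libraries, against 266, 250.5 and 283 CPM in the control + atp-2 libraries, which do not overlap (log2 fold change 0.92, SE 0.086, adjusted p = 3.18e-08). All 6 values lay below those of the libraries without atp-2 RNAi, which were 894, 971 and 1176 CPM under the prp-19 label and 1635, 1609 and 1609 CPM in the control libraries. The remaining atp-2 level was thus higher under the prp-19 label, and its part in the differences that follow was not tested.

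Gene expression differed broadly by the prp-19 label. Of 12850 genes tested, 6808 were called (53%), 3407 higher (26.5%) and 3401 lower (26.5%), with a median log2 fold change over all genes of 0.03. A change of at least 2-fold was called for 2283 genes (17.8%), 1275 of them higher (9.92%) and 1008 lower (7.84%). The groups did not overlap for 8179 of the 12850 genes (63.6%). These shares are the background for each gene list below. Genes named as the highest or lowest of a list were picked among genes with separate groups, so their separation was set by that rule. With libraries scaled by their totals alone, the median of all genes moved to 0.16 and the split of calls to 4106 higher and 2502 lower, so directions are relative to the TMM scaling. In RNA of whole worms, fewer cells of a type and less RNA per cell cannot be told apart. Of 114 genes whose values were examined singly, 39 overlap another annotated gene, among them prp-4, rsp-3, rsp-7, cox-15, sod-3 and gst-4. Strand handling is not given in the sources used here, so reads of such pairs cannot be told apart.

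Of the 8 highest genes above 5 CPM, 6 are annotated as protein-coding and 2, F02D10.10 and W07G1.25, as ncRNA. The nematode-specific peptide gene nspe-8 had 408 counts over the 3 libraries labelled prp-19 + atp-2 and 0 in the 3 control + atp-2 libraries, or at least 131-fold higher if a floor of 3 counts is set for the summed controls. The collagen gene col-183 had 162, 142 and 138 CPM in the prp-19 + atp-2 labelled libraries, against 2.74, 1.66 and 1.91 CPM in the control + atp-2 libraries (log2 fold change 6.11, SE 0.18, adjusted p = 4.21e-14). The gene F02D10.10, which starts within col-183 (chromosome X, 13466643 to 13467764) so that reads may be shared, followed at a log2 fold change of 5.87. F08G2.5 had 661, 687 and 615 CPM in the prp-19 + atp-2 labelled libraries, against 11.8, 10.3 and 12.7 CPM in the control + atp-2 libraries (log2 fold change 5.82, SE 0.094, adjusted p = 6.75e-19). All 8 sets of values were separate between the groups, as the rule for naming them required. The others were the invertebrate lysozyme gene ilys-2, the caenacin gene cnc-7, W07G1.25 and Y58A7A.4, with log2 fold changes of 5.54, 4.79, 4.97 and 4.65. These 8 genes were called higher without atp-2 RNAi as well. Leaving aside nspe-8, with 0 counts in those controls too, the log2 fold changes there ran from 1.65 (cnc-7) to 5.66 (W07G1.25).

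At the other end, 3 neighbouring genes on chromosome IV (3892327 to 3895506) were nearly silent under the prp-19 label. F56D6.9 had 0.709, 0.260 and 1.29 CPM in the prp-19 + atp-2 labelled libraries, against 109, 123.1 and 116 CPM in the control + atp-2 libraries (log2 fold change -7.18, SE 0.18, adjusted p = 4.5e-16). F56D6.8 and dct-8 beside it had log2 fold changes of -7.26 and -6.89. H39E23.3 on chromosome V (14107811 to 14110051) had 10.3, 11.6 and 11.4 CPM in the prp-19 + atp-2 labelled libraries, against 806, 784 and 865 CPM in the control + atp-2 libraries (log2 fold change -6.20, SE 0.13, adjusted p = 2.24e-17). The groups were far apart in each case. Without atp-2 RNAi these genes were lower by the label too, at -7.565 (F56D6.9), -8.035 (F56D6.8), -7.82 (dct-8) and -7.40 (H39E23.3). The remaining genes of the 8 lowest were cdr-3 of the cadmium-responsive family (-5.96), D1086.9 (-5.12), Y48G1C.13 (-4.65) and the cytochrome P450 gene cyp-13A8 (-4.28). Without atp-2 RNAi cdr-3 (-2.68), D1086.9 (-5.86) and Y48G1C.13 (-3.19) were lower as well, and cyp-13A8 was higher (1.06).

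Genes of the splicing machinery rose together in the prp-19 + atp-2 labelled libraries. In the PRP-19 complex and its partners, 12 of 14 tested genes were called higher and 0 lower, with a median log2 fold change of 0.93. The 2 not called were prp-19 itself and Y69A2AR.21. Among 55 genes of the snRNPs and spliceosome core, 48 were called higher and 1 lower, with a median of 1.08, against 26.5% of all genes called higher. The PRP-19-complex list summed to 713.6, 704 and 700.02 CPM in the prp-19 + atp-2 labelled libraries and to 302.8, 298 and 301 CPM in the control + atp-2 libraries.

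Members of several snRNPs and of the PRP-19 complex were among those higher. The gene eftu-2, a GTPase of the U5 snRNP that drives spliceosome rearrangement, had 222, 213 and 208 CPM in the prp-19 + atp-2 labelled libraries, against 43.2, 47.4 and 42.5 CPM in the control + atp-2 libraries. The log2 fold change was 2.27 (SE 0.073, adjusted p = 1.52e-14), with all labelled libraries above all controls. The U4/U6 snRNP gene prp-4 rose by 2.65 (SE 0.14, adjusted p = 7.99e-12), the highest of the core list. R08D7.1, listed in RefSeq as bud-13 and a subunit of the complex that retains unspliced RNA in yeast, rose by 2.38 (SE 0.11, adjusted p = 1.66e-12), the highest of the PRP-19-complex list. The U5 scaffold gene prp-8 (1.27), the U5 helicase gene snrp-200 (1.58) and cdc-5L, a direct partner of PRP-19 (1.297), were also called higher. All 7 Sm protein genes, which form the ring around snRNAs, were called at least 2-fold higher, with a median of 1.66. The 1 gene called lower was ZK1098.1, listed in RefSeq as prp-40 and a U1-associated factor in yeast, at -0.30 (adjusted p = 0.0049), a call lost with scaling by library totals.

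The SR proteins, which bind exonic enhancers and recruit the spliceosome, followed with smaller changes. Of rsp-1 to rsp-8, 7 were called higher and 0 lower, with a median of 0.63. The gene rsp-7 had 64.4, 70.9 and 66.5 CPM in the prp-19 + atp-2 labelled libraries, against 23.7, 22.8 and 22.3 CPM in the control + atp-2 libraries (log2 fold change 1.55, SE 0.078, adjusted p = 5.05e-12). The SRSF1 counterpart rsp-3 had 101, 89.6 and 93.4 CPM in the prp-19 + atp-2 labelled libraries, against 46.2, 47.8 and 45.6 CPM in the control + atp-2 libraries (log2 fold change 1.02, SE 0.074, adjusted p = 8.4e-10). The exception was rsp-2, whose groups overlapped at 50, 51.1 and 54.7 CPM in the prp-19 + atp-2 labelled libraries and 50.99, 49.6 and 45.9 CPM in the control + atp-2 libraries (adjusted p = 0.347). Nonsense-mediated decay, which removes transcripts with premature stops, did not share the pattern. Of its 9 factors, 0 were called higher and 1 lower, smg-2, the helicase counterpart of UPF1, at -0.33 (adjusted p = 0.0206). Scaling by library totals gave 3 higher and 1 lower there, and did not call smg-2 (adjusted p = 0.125). The smg-2 call was also lost without control + atp-2 replicate 2 (adjusted p = 0.0695) and without replicate 2 labelled prp-19 + atp-2 (adjusted p = 0.105).

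**Figure D1:**
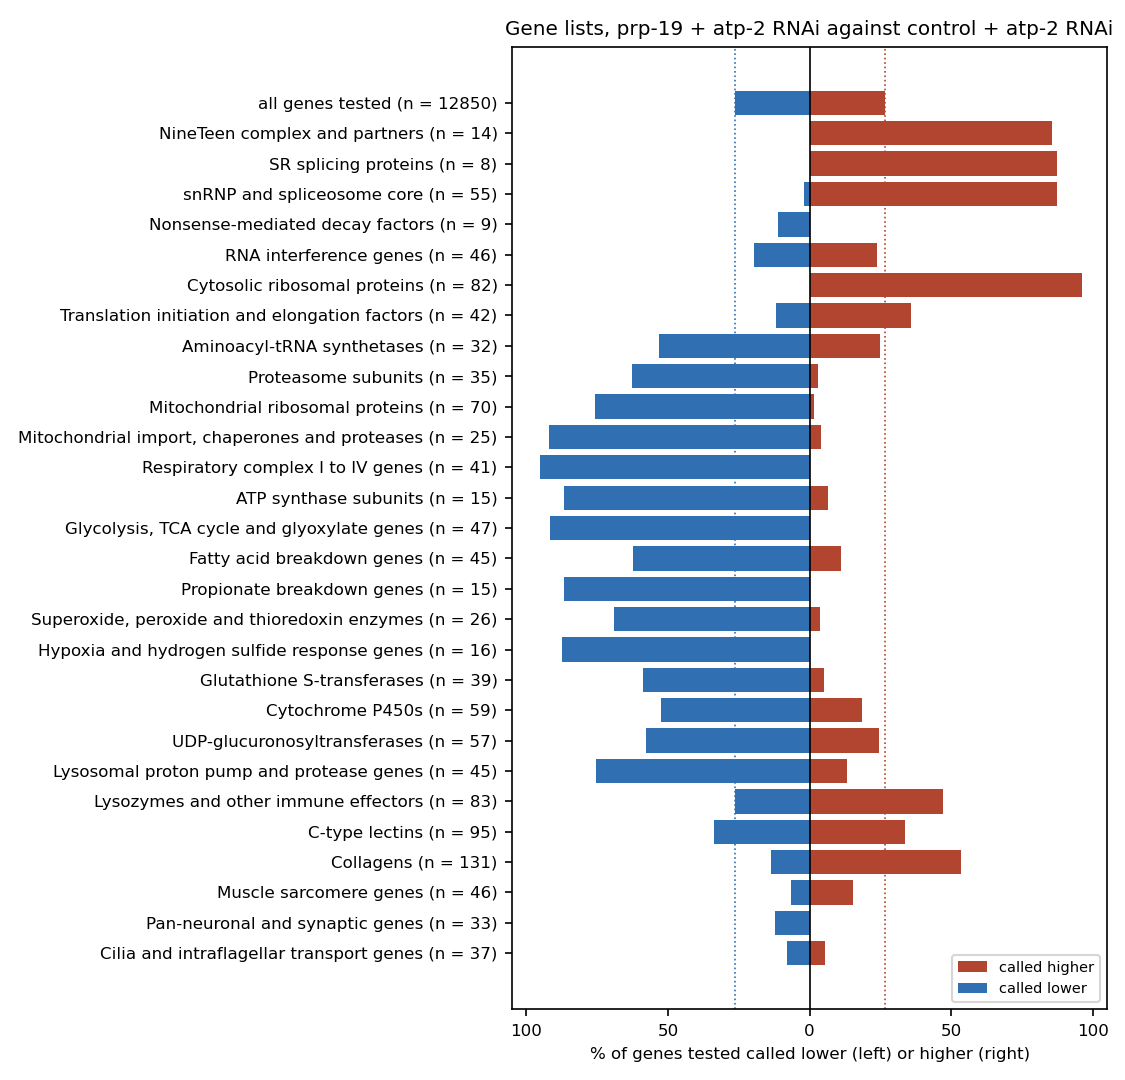
Share of tested genes in each list that was called higher (right, red) or lower (left, blue) in the prp-19 + atp-2 labelled libraries against the control + atp-2 libraries, in percent, with the number tested in brackets. Dotted lines mark the 26.5% called in each direction over all 12850 genes. Splicing and cytosolic ribosome lists extend far to the right, and mitochondrial and energy metabolism lists far to the left.

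Shares called were alike across intron classes, apart from the class with most introns. The share called was 53.9% among 167 tested protein-coding genes with no intron, 55.9% with 1 to 2 introns, 54.1% with 3 to 5, 53.8% with 6 to 10 and 46.8% among 1522 genes with over 10. Median log2 fold changes ran between -0.05 and 0.05 over these classes. The share was 40.7% of 59 antisense RNAs, 42.2% of 289 other ncRNAs and 55.3% of 47 lincRNAs. The 34 tested pseudogenes had 16 called higher and 4 lower, with a median of 0.41. Counts per gene do not measure intron retention or isoform choice, which were not analysed here.

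Cytosolic ribosomal protein genes rose almost as a whole, by a modest amount. Of 82 tested, 79 were called higher and 0 lower, with a median of 0.52, which covers 43 of 46 large subunit genes and 31 of 31 small subunit genes. They took 6.89% ± 0.29 of all counts in the prp-19 + atp-2 labelled libraries and 4.41% ± 0.023 in the control + atp-2 libraries (SD, n = 3 each). The gene rpl-11.1, one of a pair coding for ribosomal protein L11, had 149, 169 and 155 CPM in the prp-19 + atp-2 labelled libraries, against 43.1, 40.9 and 41.8 CPM in the control + atp-2 libraries. Its groups were far apart (log2 fold change 1.91, SE 0.090, adjusted p = 2.43e-12), the highest of the list. Its reads may be shared with its near-identical partner.

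The other translation lists were split. The share called was 47.6% for initiation and elongation factors and 78.1% for aminoacyl-tRNA synthetases, against 53% of all genes. Of 42 initiation and elongation factors, 15 were called higher and 5 lower, led by eif-6, which keeps ribosomal subunits apart, at 0.96 (SE 0.084, adjusted p = 1.28e-08). At the other end clu-1, the counterpart of Drosophila clueless, which binds mRNAs for mitochondrial proteins, had 58.8, 58.02 and 62.8 CPM in the prp-19 + atp-2 labelled libraries, against 153, 137 and 153 CPM in the control + atp-2 libraries (-1.303, adjusted p = 1.17e-08). Aminoacyl-tRNA synthetases charge tRNAs. Of 32 tested, 8 were called higher, led by the cytosolic asparaginyl enzyme gene nars-1 at 1.22 (adjusted p = 7.79e-10), and 17 lower. The 11 mitochondrial enzymes had 9 called lower and 0 higher, led by fars-2 at -1.08 (adjusted p = 3.48e-07), and the other 21 had 8 called each way.

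Genes of the mitochondrial unfolded protein response had lower levels under the prp-19 label. Of 25 tested import, chaperone and protease genes, 23 were called lower and 1 higher, with a median of -0.91, against 26.5% of all genes called lower. The mitochondrial HSP70 gene hsp-6 had 274, 261 and 264 CPM in the prp-19 + atp-2 labelled libraries, against 640.5, 565 and 626 CPM in the control + atp-2 libraries. The groups were separate, at -1.196 on the log2 scale (SE 0.083, adjusted p = 4.54e-10). The chaperonin gene hsp-60 had 96.1, 95.5 and 98.9 CPM in the prp-19 + atp-2 labelled libraries, against 212, 194 and 196 CPM in the control + atp-2 libraries (-1.05, SE 0.11, adjusted p = 7.79e-07). The inner membrane translocase gene timm-23 had 71.2, 77.3 and 73.0 CPM in the prp-19 + atp-2 labelled libraries, against 204, 189 and 192 CPM in the control + atp-2 libraries (-1.403, SE 0.073, adjusted p = 7.85e-12). Both sets of values were separate as well. The DnaJ gene dnj-10 (-1.61, adjusted p = 4.11e-11) and the Lon protease gene lonp-1 (-0.87, adjusted p = 2.01e-08) were also lower, and prohibitin genes phb-1 and phb-2 were among the 23. The 1 gene called higher was dnj-15, at 0.59 (adjusted p = 0.000271). The atp-2 transcript itself averaged 504 ± 7.42 CPM in the prp-19 + atp-2 labelled libraries and 266 ± 16.3 CPM in the control + atp-2 libraries (SD, n = 3 each), and its part in these lower levels was not tested.

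The regulators of this response did not move one way. Of 22 tested, 7 were called higher and 4 lower, with a median of 0.07. At 50% called, the list was near the 53% of all genes. Those called higher were set-25, a histone methyltransferase (0.90, adjusted p = 0.000138), the chromatin factors lin-65, met-2, jmjd-3.1 and jmjd-1.2, the ubiquitin-like gene ubl-5 and the kinase gene gcn-2. The transcription factor gene atfs-1 had 94.8, 82.5 and 90.9 CPM in the prp-19 + atp-2 labelled libraries, against 103.5, 112.5 and 111 CPM in the control + atp-2 libraries. The groups were separate but close (-0.29, SE 0.098, adjusted p = 0.0189), and the call was lost with library totals (adjusted p = 0.357) and without control + atp-2 replicate 2 (0.0627), control + atp-2 replicate 3 (0.0544) or replicate 2 labelled prp-19 + atp-2 (0.0889). The lowest of the 4 was nuo-6, a complex I subunit carried on this list, at -1.04 (adjusted p = 7.26e-10).

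Respiratory chain genes encoded in the nucleus were lower nearly throughout. Of 41 tested genes of complexes I to IV and their assembly, 39 were called lower and 0 higher, with a median of -1.08. This held for 13 of 13 complex I genes, 5 of 5 of complex II, 7 of 8 of complex III with cytochrome c and 14 of 15 of complex IV with its assembly factors. The heme A synthesis gene cox-15 had 11.7, 13.3 and 13.7 CPM in the prp-19 + atp-2 labelled libraries, against 43.3, 43.8 and 46.5 CPM in the control + atp-2 libraries, the largest fall of the list (-1.79, SE 0.10, adjusted p = 2.96e-11). Of 15 ATP synthase subunits, 13 were called lower, and the 1 called higher was the RNAi target atp-2. The alpha subunit gene atp-1 had 1350, 1320 and 1388 CPM in the prp-19 + atp-2 labelled libraries, against 2872, 2756 and 2835 CPM in the control + atp-2 libraries (-1.06, SE 0.12, adjusted p = 1.13e-06). The groups of both genes were separate.

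Mitochondrial ribosomal protein genes were also lower, while those of the cytosolic ribosome were higher. Of 70 tested, 53 were called lower and 1 higher, with a median of -0.52, in 32 of 41 large subunit and 21 of 29 small subunit genes. The largest fall was mrps-14, with 27.3, 24.1 and 19.8 CPM in the prp-19 + atp-2 labelled libraries, against 69.5, 62.9 and 58.4 CPM in the control + atp-2 libraries (-1.43, SE 0.12, adjusted p = 7.27e-09). The gene called higher was mrps-18.C, at 0.57 (adjusted p = 0.00282).

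**Figure D2:**
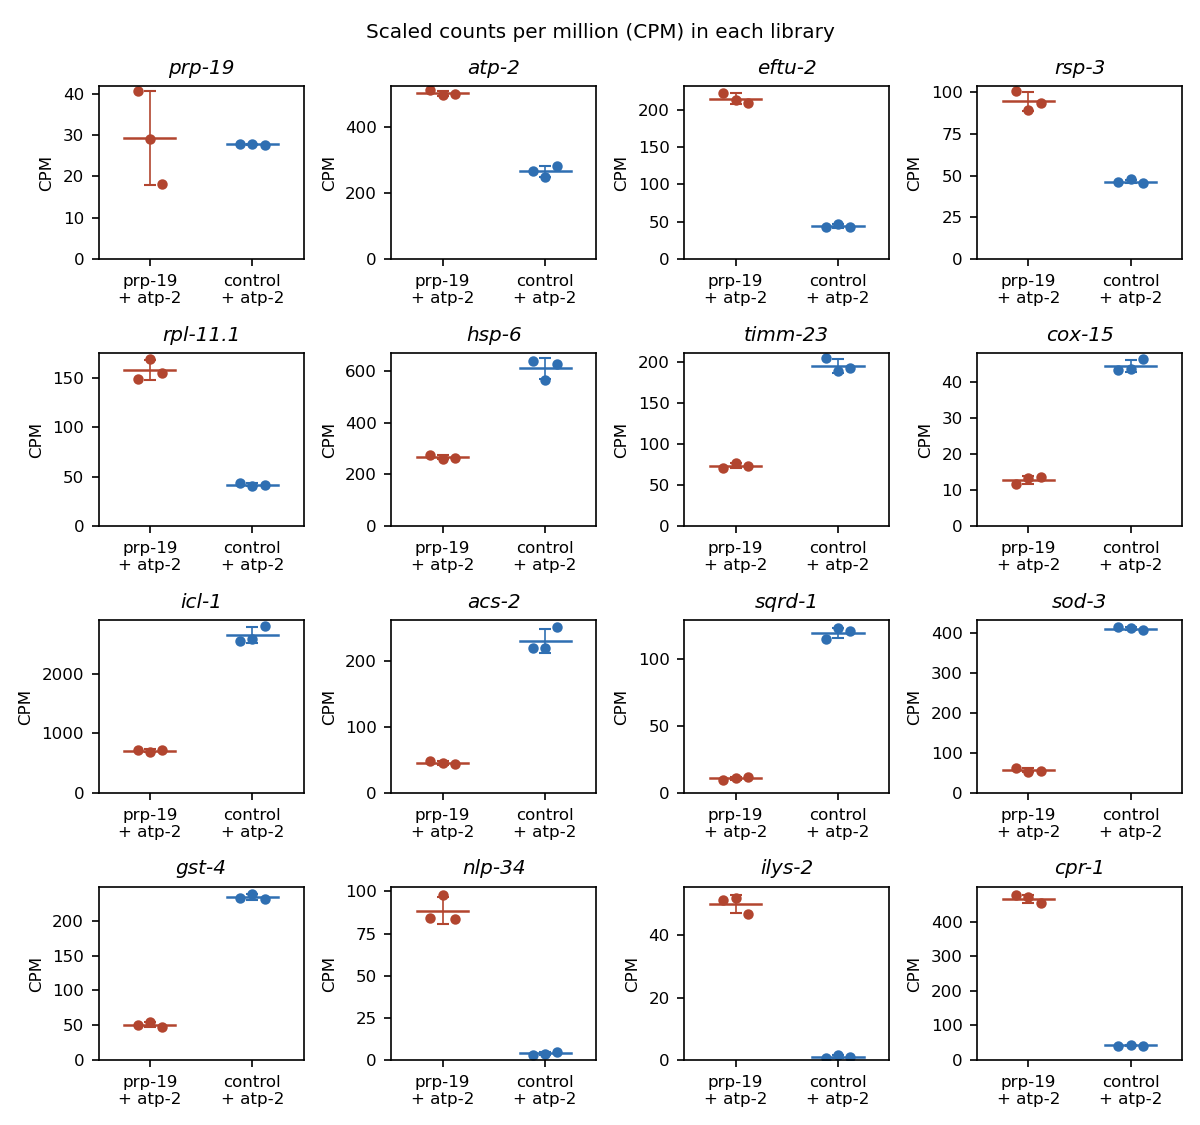
Scaled counts (CPM, linear axes from 0) of 16 genes in the 3 libraries labelled prp-19 + atp-2 (red, left) and the 3 control + atp-2 libraries (blue, right). Points are libraries, horizontal lines means and error bars SD. The groups overlap for prp-19 and are separate for the other 15 genes.

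Carbon metabolism fell in nearly all members. Of 47 tested genes of glycolysis, the TCA cycle and the glyoxylate shunt, 43 were called lower and 0 higher, with a median of -1.11, in 18 of 20 glycolytic and gluconeogenic genes and 25 of 27 of the TCA cycle and shunt. The gene icl-1, whose enzyme runs the glyoxylate shunt, had 715, 684 and 729 CPM in the prp-19 + atp-2 labelled libraries, against 2562, 2594 and 2801 CPM in the control + atp-2 libraries. The groups were far apart (-1.90, SE 0.10, adjusted p = 2.58e-11). The gluconeogenic gene pck-1, for phosphoenolpyruvate carboxykinase, had 819, 882 and 921 CPM in the prp-19 + atp-2 labelled libraries, against 2382, 2316 and 2398 CPM in the control + atp-2 libraries (-1.44, SE 0.084, adjusted p = 4.25e-11).

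Genes of fatty acid breakdown were mostly lower. Of 45 tested, 28 were called lower and 5 higher. The acyl-CoA synthetase gene acs-2, which feeds fatty acids into mitochondrial oxidation, had 48.5, 45.3 and 43.2 CPM in the prp-19 + atp-2 labelled libraries, against 219, 219 and 251 CPM in the control + atp-2 libraries, which do not overlap (-2.33, SE 0.10, adjusted p = 8.04e-13). The 5 called higher included 3 peroxisomal oxidase genes, acox-1.1 (0.68, adjusted p = 2.4e-06), acox-3 and acox-1.5, with cpt-5 and ech-9, while the peroxisomal gene maoc-1 was called lower. Propionate breakdown had 13 of 15 genes called lower and 0 higher, in 7 of 7 genes of the vitamin B12-dependent pathway and 4 of 5 of the shunt that replaces it when B12 is low. The mutase gene mmcm-1 of the B12 pathway fell by 1.54 (adjusted p = 4.7e-12) and the shunt hydrolase gene hach-1 fell by 1.59 (adjusted p = 4.74e-12) on the log2 scale. The shunt gene acdh-1 had 592, 694 and 675 CPM in the prp-19 + atp-2 labelled libraries, against 1197, 1460 and 1179 CPM in the control + atp-2 libraries. These values are separate, yet the gene was not called in the fit over all 12 libraries (log2 fold change -0.97, adjusted p = 0.418). Without replicate 3 of the prp-19 label alone its adjusted p was 7.94e-05.

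Lipid synthesis and one-carbon genes gave mixed counts. The share called was 61.1% for desaturases and elongases and 52.4% for folate and methionine cycle genes, against 53% of all genes. Of 18 desaturases and elongases, 3 were called higher, fat-7, fat-2 (0.33, adjusted p = 0.0011) and elo-3. Of the 3, only fat-7 was at least 2-fold higher, and fat-2 was the highest that met the conditions for naming. Another 8 were called lower, led by the polyunsaturated fatty acid gene fat-4 (-1.02, adjusted p = 8.76e-10). Of 21 genes of folate transport and the methionine cycle, 4 were called higher and 7 lower, a split that turned to 7 higher and 4 lower with library totals. The purine synthesis gene atic-1 (0.62, adjusted p = 9.85e-07) and the cystathionine lyase gene cth-1 (-1.004, adjusted p = 4.38e-08) were its named extremes.

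Enzymes against oxidants were lower in most cases. Of 26 tested superoxide, peroxide and thioredoxin enzymes, 18 were called lower and 1 higher, with a median of -0.85. The mitochondrial superoxide dismutase gene sod-3 had 62.1, 53.5 and 56.1 CPM in the prp-19 + atp-2 labelled libraries, against 414, 411 and 407 CPM in the control + atp-2 libraries. The groups were far apart (-2.84, SE 0.12, adjusted p = 1.93e-12). The mitochondrial peroxiredoxin gene prdx-3 fell by 1.42 on the log2 scale (adjusted p = 8.21e-11), and the cytosolic dismutase gene sod-5, at most 3.68 CPM in any of the 6 libraries, fell by 2.92 (adjusted p = 2.32e-05). The 1 gene called higher was sod-4, for the extracellular dismutase, at 0.63 (adjusted p = 3.82e-06).

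Detoxification families lost more members than they gained. Glutathione S-transferases had 23 of 39 called lower and 2 higher, cytochrome P450s 31 of 59 lower and 11 higher, and UDP-glucuronosyltransferases 33 of 57 lower and 14 higher. The SKN-1 target gst-4 had 50.95, 53.99 and 46.8 CPM in the prp-19 + atp-2 labelled libraries, against 234, 239 and 231 CPM in the control + atp-2 libraries (-2.21, SE 0.091, adjusted p = 3.48e-13). In the other direction gst-24 had 474, 497 and 462 CPM in the prp-19 + atp-2 labelled libraries, against 31.1, 25.1 and 27.2 CPM in the control + atp-2 libraries (4.10, SE 0.097, adjusted p = 2.11e-16). The groups were separate for both, which the naming rule required of gst-24, and members of 1 family moved in opposite directions. Further extremes were gst-29 (-2.58), cyp-14A5 (3.09), ugt-31 (2.65) and ugt-62 (-2.72), all called.

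Genes of the hypoxia and hydrogen sulfide response, controlled by HIF-1, were lower as well. Of 16 tested, 14 were called lower and 0 higher, with a median of -0.65. The sulfide quinone oxidoreductase gene sqrd-1, which clears sulfide in mitochondria, had 9.57, 10.9 and 12.3 CPM in the prp-19 + atp-2 labelled libraries, against 115, 122 and 120.3 CPM in the control + atp-2 libraries. The groups were far apart (-3.44, SE 0.18, adjusted p = 1.92e-09). The HIF-1 target genes cysl-2 (-1.76, adjusted p = 1e-10) and nhr-57 (-1.67, adjusted p = 2.04e-08) were lower too. The hif-1 transcript differed little, with 264, 258 and 274 CPM in the prp-19 + atp-2 labelled libraries, against 294, 306 and 311 CPM in the control + atp-2 libraries (-0.20, adjusted p = 0.033). That call was lost with library totals (adjusted p = 0.561) and in 4 of 6 fits that left out 1 of the compared libraries. Those were control + atp-2 replicate 2 (0.0797) or 3 (0.0989) and replicate 1 (0.078) or 2 (0.102) labelled prp-19 + atp-2.

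Metal response genes held strong changes in both directions. Of 19 tested, 4 were called higher and 9 lower. The metallothionein gene mtl-1 had 47.8, 47.8 and 36.3 CPM in the prp-19 + atp-2 labelled libraries, against 381, 387 and 399.8 CPM in the control + atp-2 libraries (-3.15, SE 0.20, adjusted p = 1.48e-07). The metal-responsive gene numr-1, known for its link to RNA processing, had 16.4, 15.6 and 15.8 CPM in the prp-19 + atp-2 labelled libraries, against 1.14, 1.19 and 1.64 CPM in the control + atp-2 libraries (3.60, SE 0.18, adjusted p = 5.52e-12). The groups were separate for both.

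Lists of protein quality control outside mitochondria had smaller median changes than the -0.91 of mitochondrial import, chaperones and proteases. The largest was -0.59, for inducible heat shock genes, and single members of that list changed by more. Of 35 proteasome genes, 22 were called lower and 1 higher, with a median of -0.22. The cytosolic chaperonin and HSP90 system had 8 of 18 called higher and 0 lower, with a median of 0.09. The share called was 65.7% for the proteasome list and 44.4% for both the chaperonin and the inducible heat shock lists. Over all genes it was 53%. Of 18 inducible heat shock genes, 2 were called higher, led by hsp-43 (1.27, adjusted p = 3.84e-11), and 6 lower, led by hsp-70 (-1.85, adjusted p = 0.0245). The hsp-70 call was lost in each of the 6 fits without 1 compared library, at adjusted p of 0.0515 to 0.077. In the endoplasmic reticulum, 8 of 29 chaperones and stress sensors were called higher and 12 lower, which became 11 higher and 6 lower with library totals. The BiP gene hsp-4, the standard reporter of stress in that compartment, had 213, 214 and 209 CPM in the prp-19 + atp-2 labelled libraries, against 110.1, 107 and 110.1 CPM in the control + atp-2 libraries. The groups were separate (0.96, SE 0.072, adjusted p = 1.49e-09), and the degradation adaptor gene sel-1 was lower at -0.66 (adjusted p = 2.78e-07).

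Lysosomal genes split into a pump that fell and proteases that did not move together. Of 45 tested, 34 were called lower and 6 higher, and 20 of 21 subunit genes of the vacuolar proton pump were among those lower, with a median of -0.51. The intestinal pump subunit gene vha-6 had 509, 477 and 483 CPM in the prp-19 + atp-2 labelled libraries, against 1359, 1373 and 1381 CPM in the control + atp-2 libraries (-1.49, SE 0.14, adjusted p = 9.18e-07). The cathepsin B-like gene cpr-1 had 476, 469.7 and 454 CPM in the prp-19 + atp-2 labelled libraries, against 41.7, 44.4 and 41.5 CPM in the control + atp-2 libraries (3.45, SE 0.12, adjusted p = 7.13e-14). The aspartyl protease gene asp-8 moved the other way at -2.98 (adjusted p = 2.32e-12). Among 19 cysteine and aspartyl proteases, 6 were called higher and 10 lower. Autophagy genes had 13 of 32 called lower and 1 higher, led by the receptor gene sqst-5 at -1.09 (adjusted p = 1.11e-05). At 43.8% called, the autophagy list was below the 53% of all genes.

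Antimicrobial genes of the epidermis and lysozymes rose. Of 83 tested immune effectors, a list that also holds the heme genes hrg-2 and hrg-7, 39 were called higher and 22 lower, against 26.5% each way over all genes. Lysozyme genes had 10 of 11 called higher and 0 lower, with a median of 2.43, and caenacin (cnc) genes 6 of 7 higher and 1 lower. Neuropeptide-like genes of the antimicrobial type had 8 of 10 called higher and 1 lower, with a median of 1.89. The gene nlp-34 had 84.2, 97.8 and 83.5 CPM in the prp-19 + atp-2 labelled libraries, against 3.20, 3.56 and 4.90 CPM in the control + atp-2 libraries (4.52, SE 0.15, adjusted p = 2.09e-14). The gene nlp-29 of the same cluster, the standard reporter of epidermal infection and wounding, had 61.5, 66.9 and 53.4 CPM in the prp-19 + atp-2 labelled libraries, against 11.8, 10.4 and 9.67 CPM in the control + atp-2 libraries (2.502, SE 0.12, adjusted p = 4.32e-12). These sequences are similar within their cluster, so reads could be split between them.

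Other immune genes were split. The dod genes, regulated by DAF-16, had 5 of 10 called higher and 3 lower, and the saposin-like spp genes 3 of 15 higher and 8 lower. The gene dod-21, the lowest of the effectors, had 9.81, 9.63 and 9.49 CPM in the prp-19 + atp-2 labelled libraries, against 166, 150.1 and 161 CPM in the control + atp-2 libraries (-4.04, SE 0.16, adjusted p = 1.09e-11), and dod-24 was lower at -2.63 (adjusted p = 1.6e-14). C-type lectins, which bind sugars, were evenly split at 32 higher and 32 lower of 95, and scaling by library totals gave 39 and 29. Within them clec-60 (2.16, adjusted p = 4.07e-07) and clec-17 (-3.32, adjusted p = 3.03e-14) went apart. Of 21 pals genes, linked to intracellular pathogens, 7 were called higher and 5 lower, with pals-24 at 1.33 and pals-34 at -0.77. F-box genes had 39 of 109 called higher and 13 lower. Nuclear hormone receptors had 38 of 175 higher and 42 lower, which turned to 43 higher and 27 lower with library totals. The share called was 57.1% for pals genes, 47.7% for F-box genes and 45.7% for nuclear hormone receptors, against 53% of all genes.

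Collagen genes showed many increases without a greater collagen share. Of 131 tested, 70 were called higher, 62 of them at least 2-fold, and 18 lower, with a median of 1.21. Collagen transcripts took 8.3% ± 0.21 of counts in the prp-19 + atp-2 labelled libraries and 9.38% ± 0.18 in the control + atp-2 libraries (SD, n = 3 each). The abundant adult gene col-119 had 6677, 6789 and 6708 CPM in the prp-19 + atp-2 labelled libraries, against 7009, 7117 and 6733 CPM in the control + atp-2 libraries, with overlapping groups (adjusted p = 0.612). The adult gene col-19 had 2448, 2540 and 2470 CPM in the prp-19 + atp-2 labelled libraries, against 2963, 2978 and 2805 CPM in the control + atp-2 libraries (-0.23, adjusted p = 0.0143), a call lost with library totals (0.223) and without control + atp-2 replicate 2 (0.0523) or replicate 1 labelled prp-19 + atp-2 (0.0506). Other adult genes went the other way. Of 10 tested adult hypodermis and adult collagen markers, 4 were called at least 2-fold higher, col-62, bli-1, col-7 and bli-2. Only col-19 was called lower, and the median of that list was 0.98. Its share called was 50%, against 53% of all genes. The lowest collagen gene above 5 CPM with separate groups was col-179, at -1.74 (adjusted p = 1.1e-11).

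Genes of the moulting cycle, when larvae rebuild the cuticle, were called higher in 18 of 38 and lower in 8. The nuclear receptor gene nhr-23, which drives moulting, had 11.2, 11.4 and 12.8 CPM in the prp-19 + atp-2 labelled libraries, against 5.03, 4.62 and 3.68 CPM in the control + atp-2 libraries (1.403, SE 0.14, adjusted p = 1.19e-07). The groups were separate, at low levels in these adults. The moulting list nevertheless summed to 729.9 to 784 CPM in the prp-19 + atp-2 labelled libraries and to 972 to 1018 CPM in the control + atp-2 libraries. The strut collagen gene bli-1, which is on the adult list and not the moulting list, was higher at 1.83 (adjusted p = 0.00224). The moulting gene mlt-11 was higher at 1.504 (adjusted p = 0.0181). The mlt-11 call was lost without control + atp-2 replicate 1 (0.0572) and without replicate 1 (0.0531) or 3 (0.0551) labelled prp-19 + atp-2. It was also lost with no filter on low counts (0.0502). Transthyretin-related genes had 25 of 45 called higher and 7 lower, with ttr-32 at 1.84. Hedgehog-related genes had 19 of 55 higher and 13 lower, with grl-21 at 4.01, and that excess was gone without control + atp-2 replicate 1 (13 each way) or replicate 3 (12 higher and 14 lower). The abu and pqn genes had 19 of 48 higher and 6 lower. The share called was 58.2% for hedgehog-related genes and 52.1% for abu and pqn genes, against 53% of all genes.

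The vitellogenins, yolk proteins made by the intestine, differed between members. The gene vit-3 had 2327, 2527 and 2833 CPM in the prp-19 + atp-2 labelled libraries, against 767, 947 and 869 CPM in the control + atp-2 libraries (1.57, SE 0.38, adjusted p = 0.00774). The gene vit-4 had 4148, 4269 and 4789 CPM in the prp-19 + atp-2 labelled libraries, against 1559, 1717 and 1586 CPM in the control + atp-2 libraries (1.44, SE 0.37, adjusted p = 0.0104). Both were called higher with separate groups, and the other 4 were not called. Among these 4, vit-2 had 37640, 36850 and 42260 CPM in the prp-19 + atp-2 labelled libraries, against 52840, 55910 and 53960 CPM in the control + atp-2 libraries (-0.48, adjusted p = 0.322). A fit of the 6 compared libraries alone, which leaves out the scatter of the prp-19 labelled libraries without atp-2 RNAi, gave an adjusted p of 3.61e-09 for vit-2, 7.13e-07 for vit-1 and 0.0215 for vit-6. Vitellogenins together took 12.9% ± 0.97 of counts in the prp-19 + atp-2 labelled libraries and 12.02% ± 0.41 in the control + atp-2 libraries (SD, n = 3 each). The vitellogenin genes are similar in sequence, most of all vit-3, vit-4 and vit-5, so reads could be split between them.

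**Figure D3:**
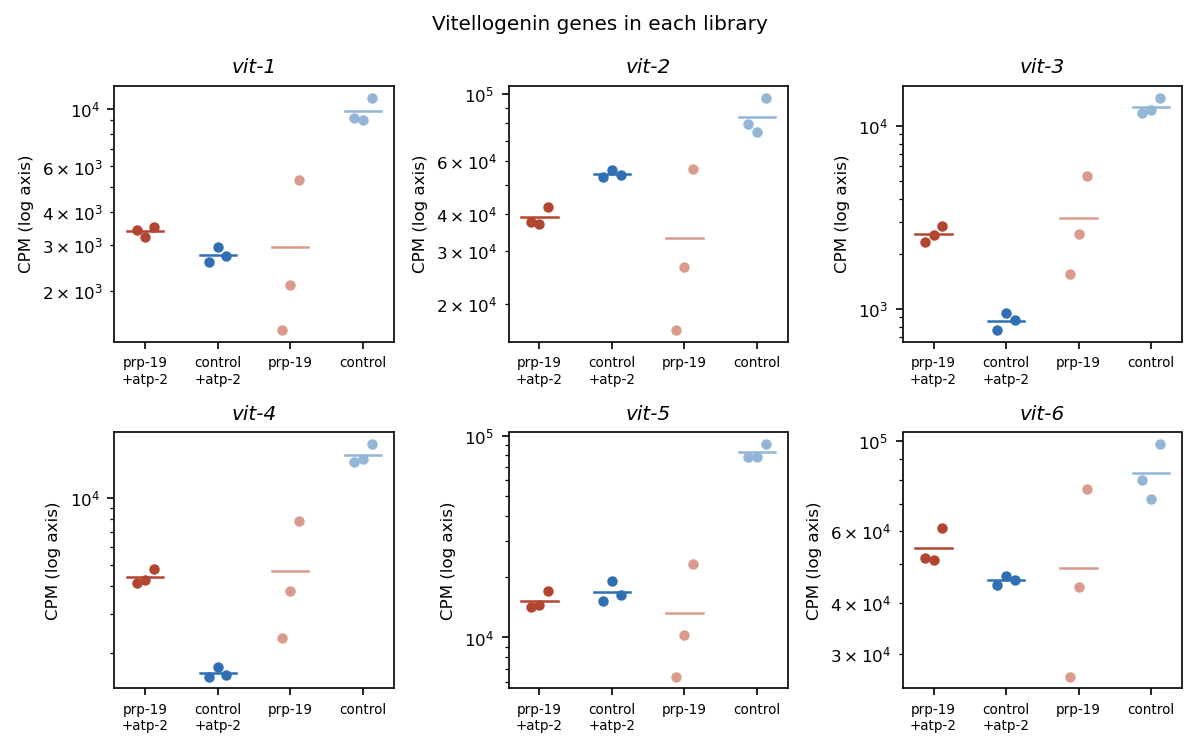
Scaled counts (CPM, log axes) of the 6 vitellogenin genes in all 12 libraries, with atp-2 RNAi (darker colours, left) and without (paler colours, right), the prp-19 label before its control in each pair. Points are libraries and lines are means. With atp-2 RNAi vit-3 and vit-4 were called higher under the prp-19 label. Without it the 3 prp-19 labelled libraries scatter widely, and they lie below the control libraries for every gene but vit-6.

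Markers of tissues gave no uniform shift, with sums taken over all measured genes of a list and calls over those tested. Intestine markers summed to 11930.4 to 12387 CPM in the prp-19 + atp-2 labelled libraries and to 11751 to 12139.9 CPM in the control + atp-2 libraries, with 8 of 22 called higher and 9 lower, or 9 and 8 with library totals. Muscle sarcomere genes summed to 23130.1 to 27523 CPM in the prp-19 + atp-2 labelled libraries and to 23041 to 26238 CPM in the control + atp-2 libraries, with 7 of 46 higher and 3 lower. Pan-neuronal genes summed to 1433 to 1589 CPM in the prp-19 + atp-2 labelled libraries and to 1476 to 1531 CPM in the control + atp-2 libraries, with 0 of 33 higher and 4 lower, or 1 each way with library totals. These sums overlap between the groups. Cilia genes had 2 of 37 called higher and 3 lower, which became 4 and 1 with library totals, and their sum was 324 to 341 CPM in the prp-19 + atp-2 labelled libraries and 399 to 409 CPM in the control + atp-2 libraries. The rootlet gene che-10 (-1.11, adjusted p = 7.11e-07) was the lowest of them. Pharynx and gland markers had 7 of 15 called higher and 0 lower, and summed to 410.4 to 532 CPM in the prp-19 + atp-2 labelled libraries and to 301 to 351 CPM in the control + atp-2 libraries. The extracellular matrix gene unc-52 of muscle (-0.82), the synaptic gene aex-3 (-0.63) and the gland gene scl-3 (1.27) were the named extremes of their lists, all called.

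Germline markers were measured because glp-4(bn2) worms are expected to lack a germline. None of the 54 genes was at 0 in all 6 libraries, and they summed to 2102 to 2765 CPM in the prp-19 + atp-2 labelled libraries and to 2481 to 2536 CPM in the control + atp-2 libraries. Of 42 tested, 10 were called higher, which is below the 26.5% of all genes, and 4 lower, namely glh-2, gld-3, pie-1 and car-1. At least 2-fold changes were called for 8 higher and 3 lower. Log2 fold changes over the 42 ran from -1.51 to 2.44, and gld-1 and glh-1 below are both from the higher side. The translational repressor gene gld-1 had 18.8, 15.3 and 17.6 CPM in the prp-19 + atp-2 labelled libraries, against 4.57, 4.03 and 3.13 CPM in the control + atp-2 libraries (2.13, SE 0.19, adjusted p = 1.15e-08). The germ granule helicase gene glh-1 had 124, 121 and 130.3 CPM in the prp-19 + atp-2 labelled libraries, against 47.1, 47.04 and 46.6 CPM in the control + atp-2 libraries (1.42, SE 0.10, adjusted p = 8.27e-10). Both were separate between the groups. Sperm genes were nearly silent, with 49 of 90 at 0 in all 6 libraries and sums of 95.66 to 100.05 CPM in the prp-19 + atp-2 labelled libraries and 96.95 to 102.02 CPM in the control + atp-2 libraries. Their part in the other differences was not tested.

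Genes of RNA interference itself were split, with 11 of 46 called higher and 9 lower. At 43.5% called, this list was below the 53% of all genes. The argonaute gene sago-2 had 37.6, 38.4 and 40.3 CPM in the prp-19 + atp-2 labelled libraries, against 11.7, 10.8 and 9.54 CPM in the control + atp-2 libraries (1.86, SE 0.14, adjusted p = 3.08e-09). The argonaute gene csr-1 had 87.2, 71.8 and 77.97 CPM in the prp-19 + atp-2 labelled libraries, against 142, 135 and 149 CPM in the control + atp-2 libraries (-0.85, SE 0.12, adjusted p = 1.85e-05). The groups were separate for both, in opposite directions. Neuropeptide genes other than the antimicrobial type had 8 of 88 called higher and 5 lower, among them 4 of 30 flp genes higher and 1 lower. Insulin-like peptides had 4 of 20 higher and 0 lower, and histones 3 of 11 higher and 2 lower. The shares called were 14.8% for those neuropeptide genes, 20% for insulin-like peptides and 45.5% for histones, all under the 53% of all genes.

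Many of these differences were also present without atp-2 RNAi, and some depended on it. The same comparison without atp-2 RNAi called 7520 genes (58.5%), 3859 higher (30%) and 3661 lower (28.5%), and the test of the difference between both comparisons, the interaction, called 2476 (19.3%), 1301 higher (10.1%) and 1175 lower (9.14%) with atp-2 RNAi. Of the 6808 genes called with atp-2 RNAi, the interaction was called for 1735. The difference was larger with atp-2 RNAi and in the same direction for 610 of these, smaller for 585 and of opposite sign for 540. The interaction was called for 3583 genes when replicate 3 of the prp-19 label without atp-2 RNAi was left out. With library totals the interaction count was 4003, with 499 higher and 3504 lower, and the median of all genes moved to 0.54 without atp-2 RNAi, and that of the interaction to -0.38, so the counts that follow hold relative to the TMM scaling.

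Lists differed in how far they depended on atp-2 RNAi. Of the 55 core spliceosome genes, 46 were called higher without atp-2 RNAi, with a median of 1.15 (1.08 with atp-2 RNAi), and the interaction was called for 4. With library totals that median was 1.62, and the interaction was called lower for 20 and higher for 1. The PRP-19-complex list had medians of 0.93 with and 1.41 without atp-2 RNAi, and the interaction was called lower for 4 of 14, or 8 with library totals. For mitochondrial import, chaperones and proteases the median was -0.91 with and -0.22 without atp-2 RNAi, and the interaction was called for 18 of 25, all lower with atp-2 RNAi. For mitochondrial ribosomal proteins it was -0.52 with and -0.06 without, and the interaction was called lower for 32 of 70. Scaling by library totals kept the sign of these interaction calls (23 and 60 called lower, 0 higher) but turned the differences without atp-2 RNAi positive, to medians of 0.26 and 0.42. Respiratory genes had medians of -1.08 with and -0.69 without atp-2 RNAi, where 32 of 41 were called lower. Their interaction was called lower for 25 of 41, with 12 of 13 from complex I, and 0 higher. Without atp-2 RNAi 43 of 47 glycolysis, TCA cycle and glyoxylate genes and 13 of 15 propionate genes were called lower as well. So were 38 of 45 fatty acid breakdown and 15 of 16 hypoxia and hydrogen sulfide genes, with 0 higher in these lists. Library totals gave 34, 9, 25 and 8 lower, in that order. ATP synthase subunits had medians of -0.77 with and -0.67 without atp-2 RNAi, and the interaction was called lower for 3 of 15 and higher for 1, atp-2, or lower for 11 with library totals.

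Single genes also differed in this respect. The import gene timm-23 had 42.8, 38.6 and 43.5 CPM in the prp-19 labelled libraries and 46, 48.4 and 49.9 CPM in the control libraries without atp-2 RNAi. Those values differ far less than the values with atp-2 RNAi given above, and the interaction was -1.195 (SE 0.11, adjusted p = 2.95e-07). For hsp-6 it was -0.61 (adjusted p = 0.00107), and for hsp-60 it was -0.46 and not called (adjusted p = 0.0657), though it was with library totals (-0.79, adjusted p = 0.000247) and without the low-count filter (-0.47, adjusted p = 0.00233). The detoxification gene gst-4 was also lower under the prp-19 label without atp-2 RNAi, at -2.05. Its interaction was -0.17 and not called (adjusted p = 0.401), but was called with library totals (-0.50, adjusted p = 0.00565). For cytosolic ribosomal proteins the interaction was called higher for 32 of 82 and lower for 2, and library totals gave 0 higher and 4 lower, so that dependence turned with the scaling.

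The vitellogenin median had opposite signs in the 2 settings, at 0.28 with and -1.74 without atp-2 RNAi. Without atp-2 RNAi 5 of 6 were called lower and 0 higher, and the interaction was called higher for 4 of 6, also with library totals. The direction of this interaction was not particular to vitellogenins. Intestine markers had medians of -0.005 with and -0.57 without atp-2 RNAi, where 16 of 22 were called lower and 3 higher. Their interaction was called higher for 14 of 22 and lower for 0, or 7 and 0 with library totals. The call for vit-1 was lost in each of the 6 fits without 1 compared library (adjusted p of 0.0774 to 0.0977) and with no filter on low counts (0.0824). The gene vit-3 had 1547, 2580 and 5298 CPM in the prp-19 labelled libraries, against 11770, 12200 and 14240 CPM in the control libraries, and its interaction was 3.59 (SE 0.54, adjusted p = 0.00219). The highest of the 3 labelled values came from replicate 3, the library that stood apart. With that library left out, the vit-3 interaction was 4.22 (adjusted p = 2.74e-05), and all 6 were called, including vit-2 at 1.51 and vit-6 at 1.53 (adjusted p = 0.00418 and 0.00613). The cytochrome P450 gene cyp-13A8 had 1.99, 1.93 and 1.82 CPM in the prp-19 labelled libraries, against 0.796, 0.709 and 1.23 CPM in the control libraries, and the lectin gene clec-17 had 7.504, 5.78 and 5.59 CPM in the prp-19 labelled libraries, against 3.66, 2.83 and 4.23 CPM in the control libraries. Both were thus low in all libraries other than control + atp-2, with interactions of -5.34 (adjusted p = 6.4e-08) and -4.13 (adjusted p = 3.18e-10).

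**Figure D4:**
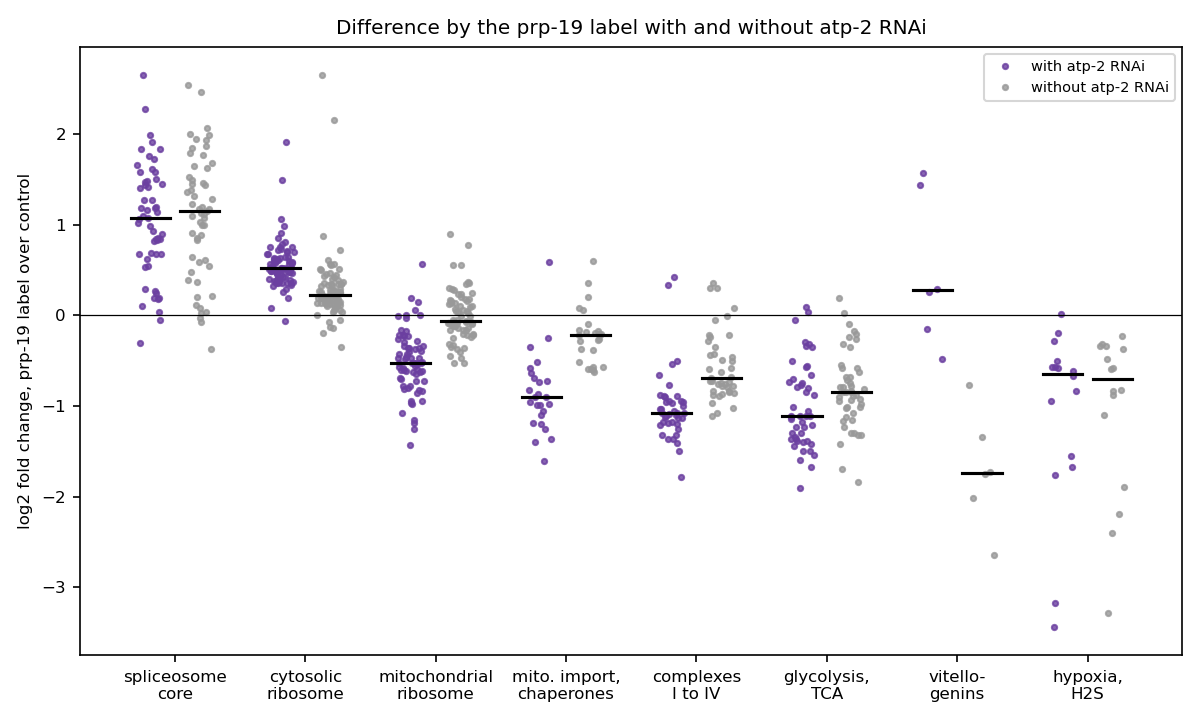
Log2 fold change by the prp-19 label of each tested gene in 8 lists, with atp-2 RNAi (purple, left) and without it (grey, right). Points are genes and black lines medians. Spliceosome medians are alike (1.08 and 1.15), those of mitochondrial import are -0.91 and -0.22, and those of the vitellogenins lie on opposite sides of 0 (0.28 and -1.74).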

How the data were processed

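PolyA RNA of whole glp-4(bn2) worms was sequenced in 4 groups of 3 libraries, with group and replicate read from each title. The authors deposited raw counts per gene for 45132 genes, with no column of another sample. The submitters' processing notes name FastQC, STAR 2.7.5c, HISAT2 2.1.0, R 4.0.5 and DESeq2 with the builds ce11 and WBcel235, but the counting program, strand handling and treatment of multiply matching reads were not stated there.

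Counts were fitted with edgeR 4.0.16 in R 4.3.3. Genes passing filterByExpr by group (12850) were scaled by TMM factors and tested by the quasi-likelihood test with Benjamini-Hochberg adjustment. The fit had 1 coefficient per group over all 12 libraries (8 residual degrees of freedom). The TMM factors were separate by group, at 1.07 to 1.10 in the prp-19 + atp-2 labelled libraries and 0.98 to 0.99 in the control + atp-2 libraries. SE is the size of the log2 fold change over the root of the F statistic. CPM are counts scaled to a common library size by the same factors. The interaction is the prp-19 difference with atp-2 RNAi minus that without it. The procedure was tested on simulated data with 200 changed genes, with 15 false calls among 12063 unchanged genes. That count is set against the unchanged genes and is not a share of all calls. Far more genes were called in the data (53%), so the count does not give the false calls of this comparison. Coordinates, introns and overlaps came from the Ensembl 115 annotation of WBcel235, which matched 12834 of the 12850 genes, and gene synonyms from the RefSeq table.

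The comparison and the gene lists were chosen with earlier results of these data known, so list counts are descriptions, with no set test. Named genes were prp-19, atp-2 and 7 stress genes, the 8 called genes with the highest and the 8 with the lowest fold changes among those above 5 CPM with separate groups, the extremes of each list by the same conditions and all members of lists of at most 10. Another 17 were chosen after their values were seen, as were the splits of lists into subgroups: eftu-2, prp-8, snrp-200, cdc-5L, acdh-1, mmcm-1, pck-1, sod-5, prdx-3, cysl-2, nhr-57, hif-1, nlp-29, dod-24, nhr-23, vha-6 and glh-1. Alternatives were RLE size factors, library totals, DESeq2 1.42.0, no filter on low counts, the 6 libraries alone, a replicate block and leaving out single libraries.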

Additional observations from a re-analysis of the deposited data

Results flagged for a closer look

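The difference by the prp-19 label was not the same with and without atp-2 RNAi for 24 of the 29 genes whose interaction was examined singly, by edgeR's quasi-likelihood test of the difference itself (adjusted over 12850 genes). Values below are the log2 difference with atp-2 RNAi minus that without it, followed by both differences, and no explanation was tested. Among all genes tested 19.3% had such a call. The 29 genes include extremes of the comparison with atp-2 RNAi, such as col-183 and cyp-13A8. That comparison is a term of the interaction, so their share of calls cannot be set against this 19.3%.

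For the RNAi target atp-2 the interaction was 1.59, from 0.92 with and -0.67 without atp-2 RNAi. Genes of mitochondrial chaperones, import and their regulator were lower by the label in the presence of atp-2 RNAi, at -0.61 for hsp-6 (-1.196 and -0.59), -1.195 for timm-23 (-1.403 and -0.21), -0.67 for lonp-1 (-0.87 and -0.20), -1.04 for dnj-10 (-1.61 and -0.57) and -0.45 for atfs-1 (-0.29 and 0.17). The atfs-1 call was lost with DESeq2 (adjusted p = 0.0586), without control + atp-2 replicate 2 (0.0702) or 3 (0.0677) and without replicate 2 (0.0833) or 3 (0.0502) labelled prp-19 + atp-2. The mitochondrial genes mrps-14 and cox-15 had -1.34 (-1.43 and -0.09) and -1.57 (-1.79 and -0.21). The endoplasmic reticulum chaperone gene hsp-4 went the other way at 1.12, from 0.96 and -0.16.

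Among metabolic and stress genes the interaction was -1.02 for sod-3 (-2.84 and -1.82), -4.39 for sod-5 (-2.92 and 1.47), -1.395 for acs-2 (-2.33 and -0.94), -1.33 for nhr-57 (-1.67 and -0.34), -5.34 for cyp-13A8 (-4.28 and 1.06) and 3.30 for ugt-31 (2.65 and -0.65). Among secreted, immune and cuticle genes it was -4.13 for clec-17 (-3.32 and 0.81), -2.08 for dod-21 (-4.04 and -1.96), 1.05 for nlp-34 (4.52 and 3.46), 1.62 for cpr-1 (3.45 and 1.83) and 4.09 for col-183 (6.11 and 2.02). The nlp-34 call was lost with library totals (0.70, adjusted p = 0.0746). For col-183 part of the size lies in the control + atp-2 libraries, at 2.74, 1.66 and 1.91 CPM, against 35.2, 48.19 and 32.3 CPM in the control libraries.

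Of the vitellogenins 4 had interactions of 2.02 (vit-1, 0.30 and -1.73), 3.59 (vit-3, 1.57 and -2.02), 3.19 (vit-4, 1.44 and -1.75) and 2.49 (vit-5, -0.15 and -2.64). The vit-1 call was lost without any 1 of the 6 compared libraries (adjusted p of 0.0774 to 0.0977) and with no filter on low counts (0.0824). For vit-3 and vit-4 the label went with higher levels in all 3 libraries with atp-2 RNAi and lower levels in all 3 without it. The prp-19 labelled libraries without atp-2 RNAi scatter widely for these genes, at 2337, 3815 and 7880 CPM for vit-4, with replicate 3 the highest.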

How the results depend on the processing

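The number of genes called with atp-2 RNAi was 6792 with RLE size factors, 6608 with library totals, 6110 with DESeq2, 7168 with no filter on low counts and 7529 in a fit of the 6 compared libraries alone. Leaving out 1 of the 6 compared libraries gave 6096 to 6202 calls, at least 2-fold 2251 to 2348, and 1955 to 2092 for the interaction. Leaving out replicate 3 of the prp-19 label alone gave 7361 calls with atp-2 RNAi, 7842 without it and 3583 for the interaction. The interaction count moved from 2476 to 4003 with library totals (499 higher and 3504 lower), where the median of all genes also moved to -0.38. The comparison without atp-2 RNAi gave 8965 calls with library totals, 7374 higher and 1591 lower.

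Of 114 single genes, 101 kept their direction and call with atp-2 RNAi under every alternative run. The log2 fold change changed sign for prp-19 without replicate 1 labelled prp-19 + atp-2 (-0.25, with a range of -0.25 to 0.33 over the libraries left out) and for col-119 with library totals (0.088), neither called in any case named here. Without atp-2 RNAi, library totals turned the sign for timm-23 (0.27), lonp-1 (0.28), hsp-4 (0.31), nhr-57 (0.15), mrps-14 (0.39) and cox-15 (0.26). No interaction of the 29 genes changed sign, and 22 kept their call throughout, the others being hsp-60, atfs-1, gst-4, vit-1, vit-2, vit-6 and nlp-34. The cause of these shifts was not tested beyond the scaling itself.

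The titles give the same replicate numbers in every group, but nothing says that a number marks a shared culture or day. Deviations from the group means of equal numbers correlated at 0.056, 0.105 and 0.0866 over 9287 genes, not all above 0.1, so the numbers were not taken as pairs, although each sample correlated best with its own number. A replicate block gave 6727 calls with atp-2 RNAi (2299 at least 2-fold), 7452 without it and 2299 for the interaction. Promoter words were planned but not run, since no sequence was used here. In simulated counts at these depths a 1.5-fold change was recovered for 71.6% of 67 genes, a 2-fold change for 94.0% of 67 and a 4-fold change for 98.5% of 66.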

Other observations

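Genes with near-complete loss under the prp-19 label lay side by side at 2 places. On chromosome IV, F56D6.9, F56D6.8 and dct-8 (3892327 to 3895506, WBcel235) are the only genes that passed the filter within 5 kb of one another and on either side, and their means were 0.754, 0.241 and 0.0788 CPM in the prp-19 + atp-2 labelled libraries, against 116, 38.8 and 11.2 CPM in the control + atp-2 libraries. On chromosome V, D1086.9 and H39E23.3 (14104270 to 14110051) had log2 fold changes of -5.12 and -6.20 (adjusted p = 1.17e-07 and 2.24e-17, edgeR). The tested genes around this pair differed far less, with D1086.1 at -0.55, D1086.12 at -0.45 and par-1 at 0.02 (adjusted p = 0.909). Log2 fold changes without atp-2 RNAi were -7.565, -8.035 and -7.82 for the chromosome IV genes and -5.86 and -7.40 for the chromosome V pair. These places were noticed after the values were seen, and no cause was tested.

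Chromosome X had more calls lower than higher with atp-2 RNAi, 545 against 421 of 1946 genes tested, with a median log2 fold change of -0.03. Chromosomes IV and V also had more calls lower than higher, at 561 against 544 of 2122 and 724 against 689 of 2557. On chromosomes I, II and III calls higher outnumbered calls lower, at 553 and 500 of 2030, 585 and 535 of 2081, and 613 and 534 of 2098. The share called in either direction ran from 49.6% on X to 55.3% on V, against 53% of all genes. The splits on IV and V were close to even, and over all genes 26.5% were called each way. Without atp-2 RNAi the X chromosome had 440 calls higher and 707 lower of 1946. Over all genes that comparison called 30% higher and 28.5% lower.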
